A study of Mus musculus with 4 samples.

Results

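Fat cells lie between the fibers of skeletal muscle and along its fascia, so quadriceps RNA holds a small amount of adipocyte RNA. The genes described here are 10 genes tied to the fat cell, 8 adipocyte markers (Adipoq, Cfd, Retn, Lep, Plin1, Cidec, Fabp4 and Pparg) and the enzyme genes Pck1 and Cyp2e1, out of 51826 gene rows measured. They were picked by gene symbol, with their levels in WT and Mef2dα2 Eko mice already known, so the difference between the genotypes is given below as a description with no test of its own. The levels came from polyA-selected quadriceps RNA of 4 male mice of about 20 weeks of age, 2 WT (wild-type) and 2 Mef2dα2 Eko mice, with 1 library per mouse. All 4 were sedentary littermates on the C57BL6/J background, fed standard chow, and their muscles were taken within one hour. Mef2dα2 Eko mice lack the α2 exon of the transcription factor gene Mef2d in every cell, through a germline CRISPR-Cas9 deletion, studied in 2 founder lines, and the line of these mice is not given in the sources used here. Each mouse is a separate animal, and 2 mice per genotype are few: an exact permutation test of 2 against 2 cannot give a two-sided p below 0.333.

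White adipocytes store triglyceride in a single large droplet and release hormones, the adipokines. The nuclear receptor PPARγ, encoded by Pparg, together with C/EBPα, turns on most of the genes that mark the cell. Perilipin 1 and CIDEC coat the droplet, and the carrier FABP4 binds the fatty acids that leave it. PEPCK, the product of Pck1, supplies glycerol 3-phosphate for the re-esterification of fatty acids in fat, and makes glucose in the liver. CYP2E1, a cytochrome P450 that oxidizes ethanol and acetone, is best known in the liver and is also made in fat.

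Total expected counts ranged from 72626757 to 85176059 per mouse, so 3 counts, taken as the floor, stood for 0.0348 to 0.0419 counts per 1000000 (CPM). All 10 genes passed the filter on low counts, which kept 16120 genes, and the lowest count of any of them was 26, for Retn in Mef2dα2 Eko replicate 2. The count of Mef2d over the whole gene cannot show the loss of 1 exon, and its level was 259 and 227 CPM in the WT mice and 252 and 241 CPM in the Mef2dα2 Eko mice. Mef2d overlaps 1700113A16Rik on the other strand, and whether strand was used in counting is not given in the sources used here. The 8 markers of muscle fibers were abundant in all 4 libraries, with a summed level between 115567 and 120447 CPM. Myh4 alone was at 64359 to 69587 CPM, and single genes moved within the sum. From WT replicate 1 and 2 to Mef2dα2 Eko replicate 1 and 2, Myh1 was at 4967, 3984, 3476 and 3121 CPM. Myh2 was at 1576, 1709, 1264 and 1041 CPM, and Myh7 at 113, 339, 237 and 145 CPM. The log2 fold changes of the 8, Mef2dα2 Eko against WT, ran from -0.51 to 0.12, with a median of -0.07.

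The RefSeq promoter table of GRCm38.p6 held 9 of the 10 genes, all but Fabp4. Stretches of 4 promoters are shown because these genes stand for the patterns across mice that follow: Adipoq for the shared pattern, Lep for the gene that left it, and Pck1 and Cyp2e1 for the enzymes. The sequences run 5′ to 3′ on the strand of the gene, all on the plus strand, and end before the annotated start of the gene. Capitals mark CCAAT (Adipoq and Cyp2e1), TTGCNNAA (Lep), TTACGTCA (Pck1), each read on both strands, and the MEF2 site of Cyp2e1.
Adipoq, chr16:23146286-23146535: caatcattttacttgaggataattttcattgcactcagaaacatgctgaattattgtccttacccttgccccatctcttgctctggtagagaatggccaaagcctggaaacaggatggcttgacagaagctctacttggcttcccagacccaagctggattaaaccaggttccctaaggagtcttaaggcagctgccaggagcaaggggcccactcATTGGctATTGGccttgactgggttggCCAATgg
Lep, chr6:29059971-29060219: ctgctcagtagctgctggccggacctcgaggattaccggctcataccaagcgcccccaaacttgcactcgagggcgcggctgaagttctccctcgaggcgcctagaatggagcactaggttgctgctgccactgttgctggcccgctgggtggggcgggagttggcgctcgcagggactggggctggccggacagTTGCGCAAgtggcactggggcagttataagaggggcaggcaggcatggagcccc
Pck1, chr2:173152823-173153047: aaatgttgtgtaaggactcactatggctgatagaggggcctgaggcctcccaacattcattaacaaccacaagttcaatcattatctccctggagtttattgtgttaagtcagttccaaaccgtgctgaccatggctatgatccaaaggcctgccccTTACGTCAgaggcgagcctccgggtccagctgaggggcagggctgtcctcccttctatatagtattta
Cyp2e1, chr7:140763569-140763738: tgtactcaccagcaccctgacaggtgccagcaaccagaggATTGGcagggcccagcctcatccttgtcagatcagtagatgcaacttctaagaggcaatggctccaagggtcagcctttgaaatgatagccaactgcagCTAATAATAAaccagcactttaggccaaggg
CCAAT was found in promoters of 3 of these genes (Adipoq, Pparg and Cyp2e1) and in 33.8% of 32851 promoters of the same length. TTGCNNAA, a form of the C/EBP motif, was found for Lep, Plin1, Cidec and Pparg and in 9.56% of promoters. For Cidec and Pparg the match lay before a further annotated start of the gene. Each gene was counted if any of its promoters matched, while the shares are over single promoters. TTACGTCA, a form of the cyclic AMP response element, was found for Pck1 and in 0.447% of promoters. The MEF2 site was found for Cyp2e1 and in 2.92% of promoters. DR1, a pair of AGGTCA repeats with 1 base between them that PPARγ binds with RXR, was found for none of these genes and in 0.0335% of promoters. Such matches describe the letters in a window of 250 bases before the start, and do not show binding.

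The members differed widely in level. Per kilobase of exon, Fabp4 was the most abundant, with a mean over the 4 mice of 79.4 CPM per kb, followed by Cfd with 21.6 CPM per kb. Adipoq had 4.18, Cyp2e1 3.84, Cidec 2.76, Pck1 1.38 and Plin1 1.14 CPM per kb. Pparg (0.746), Lep (0.725) and Retn (0.542 CPM per kb) were the lowest. Fabp4 lay above Cfd in every mouse, and the ranges over mice of all other neighbours in this order overlapped.

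**Figure D1:**
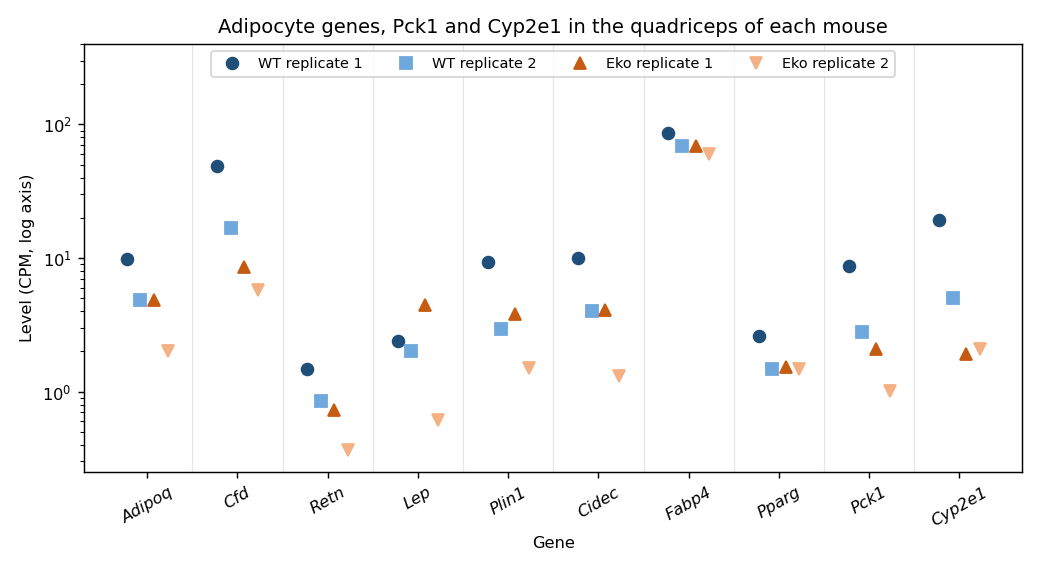
Level of each gene in each mouse, in CPM on a log axis, with 1 point per mouse. WT replicate 1 is the highest point for 9 of the 10 genes and Mef2dα2 Eko replicate 2 the lowest for 9.

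Adipoq encodes adiponectin, an adipokine released into blood by fat cells (chromosome 16, 23146536 to 23158028 on GRCm38). WT replicate 1 had 9.87 CPM, WT replicate 2 had 4.83, Mef2dα2 Eko replicate 1 had 4.86 and Mef2dα2 Eko replicate 2 had 2.01, from 749, 391, 419 and 144 counts. WT replicate 2 and Mef2dα2 Eko replicate 1 could not be told apart, with a ratio of 0.995 (95% exact counting interval 0.864 to 1.14), while the mice of each genotype differed from each other. The ratio of WT replicate 1 to WT replicate 2 was 2.04 (1.80 to 2.31), and that of Mef2dα2 Eko replicate 1 to replicate 2 was 2.41 (1.99 to 2.94). Such intervals cover counting error only. The genotypes overlapped, and the log2 fold change of Mef2dα2 Eko against WT was -1.08 ± 0.45 (SE), with a mean of 7.35 ± 3.56 CPM in WT and 3.44 ± 2.01 CPM in Mef2dα2 Eko mice (SD, n = 2).

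Plin1 and Cidec, the droplet-coat genes, followed Adipoq. Plin1 was at 9.41, 2.94, 3.82 and 1.50 CPM, with the mice listed from WT replicate 1 and 2 to Mef2dα2 Eko replicate 1 and 2, as for all values that follow. Cidec, whose product joins droplets into larger ones, was at 9.95, 4.01, 4.07 and 1.31 CPM. For both genes the Mef2dα2 Eko replicate 1 level lay above that of WT replicate 2, so the genotypes overlapped, and the spread over the 4 mice was 6.29-fold for Plin1 and 7.57-fold for Cidec. Retn, which encodes the adipokine resistin, was at 1.48, 0.853, 0.731 and 0.364 CPM. Its genotypes did not overlap, but the Mef2dα2 Eko replicate 1 level was within counting error of WT replicate 2, with a ratio of WT replicate 2 to it of 1.17 (0.818 to 1.67). The log2 fold changes were -1.20 ± 0.58 for Plin1, -1.36 ± 0.56 for Cidec and -1.07 ± 0.42 for Retn (SE).

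Fabp4 and Pparg had the narrowest spreads over the mice. Which cells of the muscle gave the RNA of either gene was not tested. Fabp4 was at 86.9, 68.8, 68.8 and 60.2 CPM, a 1.44-fold range, and Pparg at 2.596, 1.48, 1.53 and 1.48 CPM, a 1.75-fold range. For Fabp4, WT replicate 1 was above the other mice by 1.26-fold or more. For Pparg, WT replicate 1 stood apart and the other 3 mice were alike within counting error: the ratio of Mef2dα2 Eko replicate 1 to replicate 2 was 1.03 (0.794 to 1.35). Pparg overlaps Gm44079 on the other strand. The log2 fold changes were -0.27 ± 0.12 for Fabp4 and -0.43 ± 0.28 for Pparg (SE).

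Lep, which encodes leptin, the fat-cell hormone that reports fat stores to the brain, did not follow the others. Its level was 2.40, 2.00, 4.43 and 0.615 CPM. The Mef2dα2 Eko mice were thus the highest and the lowest of all 4, and differed 7.20-fold (5.26 to 10.1) from each other. The WT mice differed by 1.20-fold (0.964 to 1.49). The log2 fold change was 0.21 ± 0.71 (SE), and it was -1.82 without Mef2dα2 Eko replicate 1 and 1.01 without Mef2dα2 Eko replicate 2.

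Cfd, Pck1 and Cyp2e1 had the lowest log2 fold changes of the 10 with all 4 mice. Cfd, which encodes adipsin or complement factor D, was at 48.5, 16.9, 8.61 and 5.72 CPM, from 3680, 1367, 742 and 409 counts. Neither Mef2dα2 Eko mouse reached the level of a WT mouse, and WT replicate 2 was 1.96-fold (1.79 to 2.15) above Mef2dα2 Eko replicate 1. The mean was 32.7 ± 22.3 CPM in WT and 7.16 ± 2.04 CPM in Mef2dα2 Eko mice (SD, n = 2), and the log2 fold change was -2.18 ± 0.46 (SE).

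Pck1 was at 8.78, 2.77, 2.10 and 1.01 CPM. Its genotypes did not overlap, but WT replicate 2 was 3.17-fold (2.72 to 3.70) below WT replicate 1 and 1.32-fold (1.08 to 1.61) above Mef2dα2 Eko replicate 1, so the gap between the WT mice was the wider one. The log2 fold change was -1.88 ± 0.56 (SE). Cyp2e1 was at 19.2, 5.06, 1.93 and 2.08 CPM, from 1456, 409, 166 and 149 counts. The Mef2dα2 Eko mice were alike within counting error, with a ratio of 0.924 (0.736 to 1.16), and WT replicate 2 was 2.63-fold (2.19 to 3.17) above Mef2dα2 Eko replicate 1. The WT mice differed by 3.79-fold (3.40 to 4.24), and the log2 fold change was -2.60 ± 0.57 (SE).

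The size of these differences rested on single mice. Over the 4 fits that each omit 1 mouse, the value on the log2 scale was between -2.74 and -1.23 for Cfd, -2.50 and -0.82 for Pck1, and -3.25 and -1.34 for Cyp2e1, smallest without WT replicate 1 for all 3. It was between -1.85 and -0.48 for Adipoq, -2.39 and -0.56 for Cidec, -2.03 and -0.14 for Plin1, -1.66 and -0.63 for Retn, -0.42 and -0.09 for Fabp4, and -0.77 and 0.022 for Pparg, again smallest in size without WT replicate 1.

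In the fit across all genes (the quasi-likelihood test of edgeR, p adjusted by Benjamini and Hochberg's method), 67 of 16120 genes had an adjusted p below 0.05, which is 0.416% of genes (0.310% lower in Mef2dα2 Eko mice), and none of the 10 members was among them. The adjusted p of the members was between 0.162 (Cfd) and 0.937 (Lep). At an unadjusted p below 0.05, 6 members were lower in Mef2dα2 Eko mice (Adipoq, Cfd, Retn, Cidec, Pck1 and Cyp2e1), where 6.41% of all genes were. DESeq2 called 0 of the members, beside 1.97% of all genes, and 5 members had an unadjusted p below 0.05 in DESeq2, where 8.65% of all genes did. The likelihood ratio test of edgeR called 3 members (Cfd, Pck1 and Cyp2e1), beside 312 of all 16120 genes. A log2 fold change of -1 or below was found for 7 of the 10 and for 1.74% of all genes. As the members were chosen with this contrast known, these counts describe them and support nothing.

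**Figure D2:**
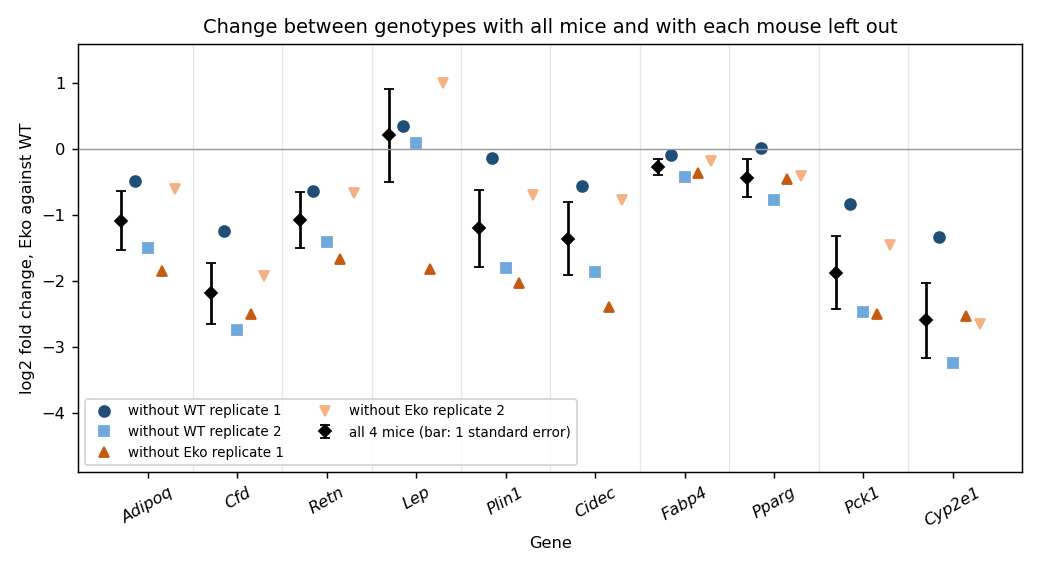
Log2 fold change of Mef2dα2 Eko against WT for each gene with all 4 mice (black diamonds, bars are 1 standard error) and with each mouse left out (coloured points). Leaving out WT replicate 1 brings Pparg to 0.022 and Plin1 to -0.14, while Lep moves between -1.82 and 1.01.

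Most of the adipocyte genes varied in the same direction from mouse to mouse within each genotype, by unequal amounts. Lep and Cyp2e1 departed from the shared extremes. Cfd kept those extremes and departed from the shared profile in the size of its deviations. WT replicate 1 was the highest mouse and Mef2dα2 Eko replicate 2 the lowest for 8 of the 10 genes, all but Lep and Cyp2e1, an order of extremes found in 12.5% of all genes tested. WT replicate 1 was the highest mouse for 9 of the 10 (28.5% of all genes), and Mef2dα2 Eko replicate 2 the lowest for 9 (27.7%). The full order from WT replicate 1 and 2 to Mef2dα2 Eko replicate 1 and 2 was that of Cfd, Retn and Pck1 (7.21% of all genes), and the same order with the middle mice exchanged that of Adipoq, Plin1, Cidec, Fabp4 and Pparg (5.27%). Within the WT mice, each of the 8 adipocyte markers was higher in replicate 1, by a median of 0.89 on the log2(CPM + 0.1) scale, from 0.25 for Lep to 1.64 for Plin1. Within the Mef2dα2 Eko mice, each of the 8 was higher in replicate 1, by a median of 1.04, from 0.04 for Pparg to 2.66 for Lep. The median over all genes was close to 0 for both pairs, at 0.01 and 0.00. Between WT replicate 2 and Mef2dα2 Eko replicate 1, the median of the 8 was -0.02, and 2 of the 8 (Cfd and Retn) were higher in the WT mouse. Between WT replicate 1 and Mef2dα2 Eko replicate 2, the median was 2.02 and each of the 8 was higher in the WT mouse. In these bulk samples, fewer fat cells in a muscle and less RNA of a gene per fat cell cannot be told apart.

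The mean deviation of the 8 markers from their own means over the mice was 0.95 and 0.00 in the WT mice, replicate 1 first, and 0.05 and -1.0 in the Mef2dα2 Eko mice, on the log2 scale. WT replicate 1 differed from WT replicate 2 by 0.94, Mef2dα2 Eko replicate 1 from replicate 2 by 1.05, and WT replicate 2 from Mef2dα2 Eko replicate 1 by -0.05. Across the genotypes, the difference was 0.90 between the mice numbered 1 and 1.0 between the mice numbered 2, so gaps of like size stood within and between genotypes, and it was 1.95 between WT replicate 1 and Mef2dα2 Eko replicate 2. WT replicate 1 was at least 2-fold above WT replicate 2 for 6 of the 10 genes (Adipoq, Cfd, Plin1, Cidec, Pck1 and Cyp2e1), where 1.26% of all genes were. Mef2dα2 Eko replicate 1 was at least 2-fold above replicate 2 for 4 of the 10 (Adipoq, Lep, Plin1 and Cidec), where 1.90% of all genes were. For 4 of the 10 genes (Cfd, Retn, Pck1 and Cyp2e1) both Mef2dα2 Eko mice lay below both WT mice, beside 23.0% of all genes.

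**Figure D3:**
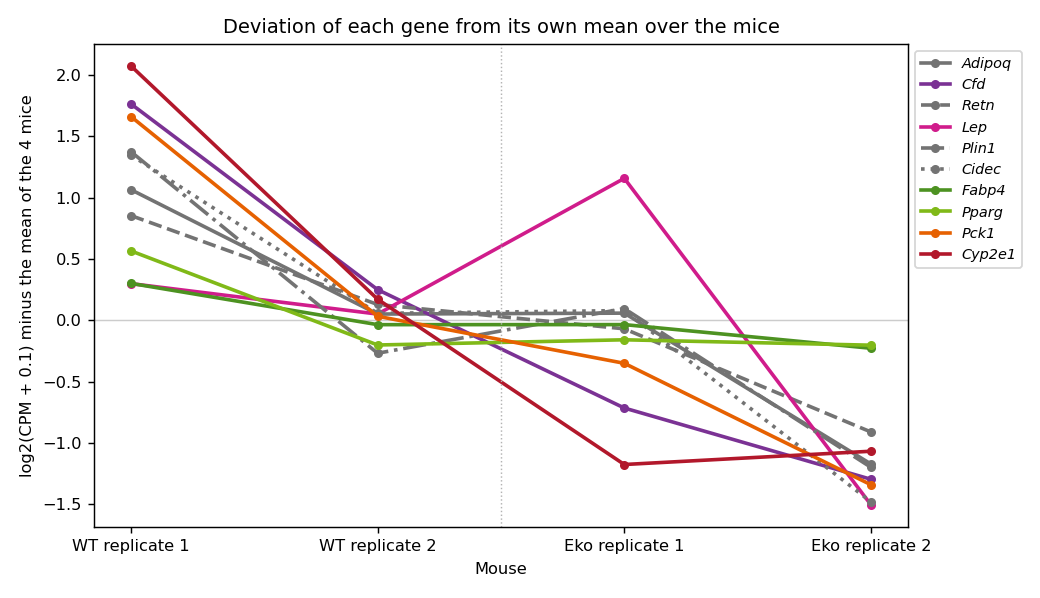
Deviation of each gene from its own mean over the 4 mice, on the log2(CPM + 0.1) scale, with 1 line per gene. Most lines drop from WT replicate 1 to the middle mice and again to Mef2dα2 Eko replicate 2, while Lep peaks in Mef2dα2 Eko replicate 1 and Cyp2e1 is as low in that mouse as in replicate 2.

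How closely a gene followed Adipoq can be read from the counts per Adipoq count in the same mouse. Retn kept the most even ratio, 0.150, 0.176, 0.150 and 0.181, a 1.21-fold range within its counting intervals. Cidec (1.01, 0.829, 0.838 and 0.653) and Plin1 (0.953, 0.609, 0.785 and 0.743) kept theirs within 1.54-fold and 1.57-fold. Fabp4 had 8.80, 14.2, 14.2 and 29.9 counts per Adipoq count, and Pparg 0.263, 0.307, 0.315 and 0.736, so both were highest, relative to Adipoq, in the mouse with the least Adipoq.

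Relative to Adipoq, Pck1 and Cyp2e1 were highest in WT replicate 1, the mouse with the most Adipoq. Pck1 had 0.889, 0.573, 0.432 and 0.500 counts per Adipoq count. Cyp2e1 had 1.94 and 1.05 (0.908 to 1.20) in the WT mice, replicate 1 first, and 0.396 (0.329 to 0.475) and 1.03 (0.817 to 1.31) in the Mef2dα2 Eko mice. The ratio was thus the same, within counting error, in 1 mouse of each genotype, and its 4.91-fold range was the widest of the 9 genes. Cfd ranged from 4.91 in WT replicate 1 to 1.77 in Mef2dα2 Eko replicate 1, and Lep from 0.243 in WT replicate 1 to 0.912 in Mef2dα2 Eko replicate 1.

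**Figure D4:**
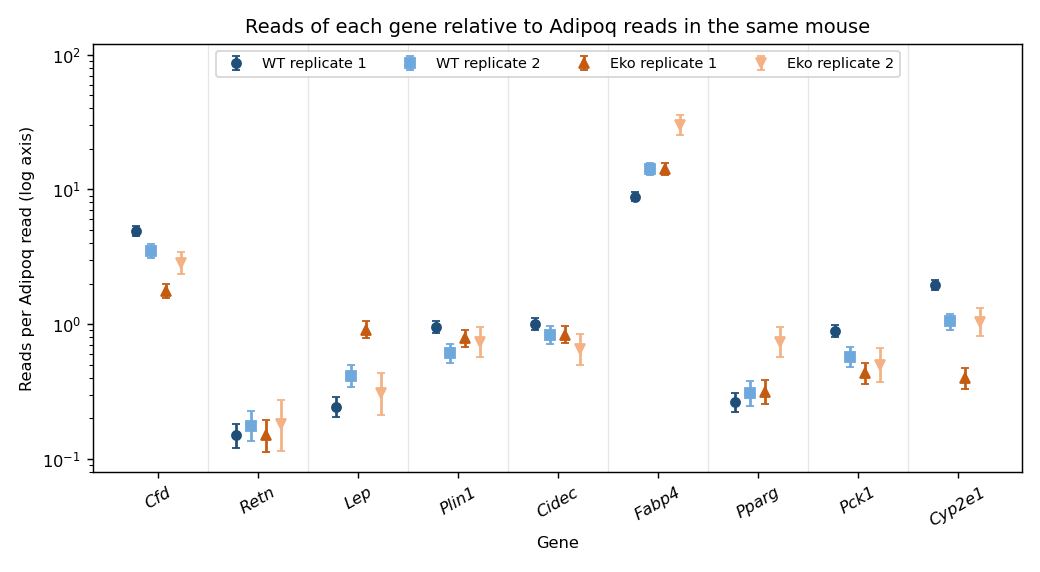
Counts of each gene per Adipoq count in the same mouse, on a log axis, with 95% exact counting intervals as bars. Retn, Cidec and Plin1 stay within a 1.57-fold range, while Cyp2e1 spans 4.91-fold and Fabp4 is highest in Mef2dα2 Eko replicate 2.

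The 10 other genes whose profile over the 4 mice was closest to the mean of the 8 markers, by the root-mean-square difference of centred log2(CPM + 0.1) values, were A530016L24Rik (0.025), Cnr1 (0.066), Ush1c (0.068), Gm45291 (0.101), Tusc5 (0.101), Slamf9 (0.115), Doc2g (0.125), Gm44891 (0.129), Myo1f (0.145) and Gm16042 (0.150). Cnr1 encodes a cannabinoid receptor, and Tusc5, also named Trarg1, a fat-cell protein of glucose transporter traffic. A530016L24Rik was at 1.90, 0.989, 1.01 and 0.433 CPM. Most of these are low-level genes, and Gm45291 and Cnr1 had 0 and 2 counts in Mef2dα2 Eko replicate 2. When each member was set against the mean of the other 7 in the same way, Adipoq (0.123) and Retn (0.123) were closest, each at rank 7 beside 16110 other genes. Plin1 (0.313) was at rank 237, Cidec (0.360) at 402, Pparg (0.532) at 870 and Fabp4 (0.577) at 1238. Cfd (0.678) was at rank 10407 and Lep (0.788) at 13015. Against the mean of the 8, Pck1 (0.445) was at rank 617 and Cyp2e1 (0.839) at 14608. Against the mean of the 8, the median gene was at 0.695, and Cyp2e1 was farther than it. By rank among the 16110 other genes, Cfd, Lep and Cyp2e1 all lay past the middle. The distance counts the size of the deviations as well as their order. A gene of the same order and a wider spread is thus set farther away.

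Genes outside the 10 were read from lists by function. Of 12 other adipocyte genes, 0 passed the adjusted threshold. An unadjusted p below 0.05 was found for 9, all lower in Mef2dα2 Eko mice, where 6.41% of all genes were. In either direction, 11.6% of all genes had such a p. The median log2 fold change of the 12 was -0.94, beside -0.01 over all genes. DESeq2 also called 0 of the 12. Hp, which encodes haptoglobin, was at 8.68, 3.91, 3.79 and 1.59 CPM, the mouse order of Cfd and Retn. Cebpa, the partner of Pparg in fat-cell differentiation, was at 8.01, 4.76, 4.41 and 3.96 CPM. Adrb3, the β3-adrenergic receptor of fat cells, was at 1.21, 0.309, 0.104 and 0.196 CPM, with 9 and 14 counts in the Mef2dα2 Eko mice. Sfrp5, an adipokine that binds Wnt proteins, was at 3.02, 3.38, 2.77 and 4.14 CPM, in no such order.

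Genes that make, store and break down triglyceride, many of them used by muscle fibers as well, varied less. None of 18 passed the adjusted threshold in edgeR's quasi-likelihood test. An unadjusted p below 0.05 was found for 9, beside 11.6% of all genes, and the median log2 fold change was -0.29. DESeq2 called 4 of the 18, Dgat2, Agpat2, Lpl and Fabp3, beside 1.97% of all genes. Agpat2, an acyltransferase of triglyceride synthesis, was at 7.13, 5.24, 3.38 and 2.82 CPM (log2 fold change -0.99 ± 0.18, SE, adjusted p = 0.118 by edgeR). Lipe, which encodes hormone-sensitive lipase, was at 24.3, 14.8, 14.1 and 14.0 CPM, the pattern of Pparg with WT replicate 1 alone above the rest. Of 8 lipogenic genes none passed in edgeR's quasi-likelihood test, adjusted or not, or in DESeq2. Scd1, a fatty acid desaturase, was at 137.8, 99.3, 96.0 and 41.5 CPM.

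Among partners of the single members, the quasi-likelihood test of edgeR called no gene. DESeq2 and the likelihood ratio test of edgeR each called Pcx and C3. The 17 partners of PPARγ had a median log2 fold change of -0.03, with 1 (Ncoa2) at an unadjusted p below 0.05. The 7 tested genes of glucose and glycerol synthesis beside Pck1 had a median of 0.02, and Pcx, pyruvate carboxylase, was at 84.1, 83.0, 60.7 and 65.9 CPM (adjusted p = 0.111 by edgeR). The 6 receptors and receptor partners of adipokines had a median of 0.07, and Adipor1 was between 241.1 and 245.8 CPM in all 4 mice. Of 5 tested genes of the alternative complement pathway, in which factor D cleaves factor B, C3 and Cfb had an unadjusted p below 0.05 and the median of the list was -0.44. The 4 genes that pass electrons to cytochromes P450 had a median of -0.14.

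Markers of other cells were read beside these results. The 8 macrophage markers summed to 46.3, 37.7, 33.5 and 24.7 CPM, and each of the 8 was highest in WT replicate 1 and lowest in Mef2dα2 Eko replicate 2, the extremes of the adipocyte genes. Their median log2 fold change was -0.63. The quasi-likelihood test of edgeR called none, with 6 at an unadjusted p below 0.05, beside 11.6% of all genes. DESeq2 called 2 (C1qb and C1qc), beside 1.97% of all genes. The part of macrophage content in the result was not tested. Of the brown-fat markers, Ucp1, which defines the cell, was at 0 counts in all 4 mice. Cidea, a droplet protein of brown fat, was at 0.527, 0.680, 0.302 and 0.238 CPM. Dio2 went the other way, at 1.07, 0.569, 0.940 and 1.31 CPM. Cox8b was between 48.1 and 53.8 CPM, and the median log2 fold change of the 4 tested was -0.14. Hepatocyte markers were near 0 (all 7 between 0 and 4 counts in each mouse), so the Pck1 and Cyp2e1 counts came without liver markers. The 6 endothelial markers summed to between 138.7 and 161.9 CPM, with none in the extremes of the adipocyte genes. The 7 markers of fibro-adipogenic progenitors, from which fat cells of muscle arise, summed to 241.7, 256.5, 281.2 and 228.9 CPM, but 4 of the 7 were highest in WT replicate 1 and lowest in Mef2dα2 Eko replicate 2, and their mean deviation on the log2 scale ran from 0.12 to -0.15 in those mice. Their part in the result was not tested.

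**Figure D5:**
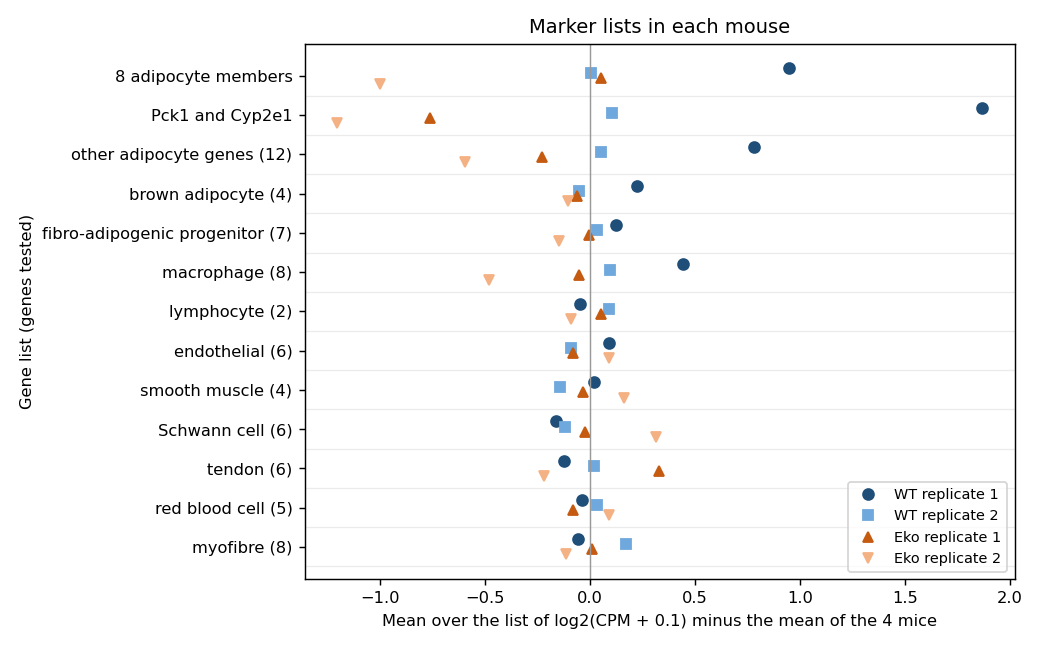
Mean over each gene list of the deviation of log2(CPM + 0.1) from the mean of the 4 mice, with 1 point per mouse and the number of genes tested in brackets. The adipocyte lists and the macrophage list run from WT replicate 1 down to Mef2dα2 Eko replicate 2, while the muscle fiber, endothelial and blood lists lie within 0.17 of 0.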

How the data were processed

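RNA of the quadriceps of 2 WT and 2 Mef2dα2 Eko mice was measured, grouped by the genotype in the sample labels. The authors aligned reads to mm10 (the submitters' processing notes name STAR 2.6.1a) and estimated expected counts per gene with RSEM and an Ensembl annotation of GRCm38, deposited without normalization. All deposited values were whole (0 were not), so rounding changed none. RSEM shares reads that match several genes among them. Here, edgeR 4.0.16 in R 4.3.3 (TMM, filterByExpr, glmQLFTest, genotype as the sole term) kept 16120 of 24621 genes with any count, with p adjusted over all of them at a threshold of 0.05 and a prior count of 0.125. CPM used TMM-scaled totals, and log2(CPM + 0.1) a pseudocount of 0.1. Levels per kb used the exon length of GENCODE M21. Count ratios carry 95% exact intervals. The members and lists were chosen with earlier results of these data known. The genes named are the members, Mef2d, examples that stand for the range of each list, and the 10 genes nearest in profile. Alternatives used DESeq2 1.42.0 and limma 3.58.1. Tested on simulated data with 15847 genes, the test recovered 58 of 100 genes at a log2 fold of 1 and 88 of 100 at 2, with 21 unchanged genes called.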

Additional observations from a re-analysis of the deposited data

How the results depend on the processing

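The count of genes called, 67 in the reported test, was 318 with DESeq2, 284 with DESeq2 on all genes with any count, 312 with the likelihood ratio test, 799 with no filter on low counts, 23 with a filter of 1 CPM in 2 libraries and 28 to 240 with 1 mouse left out. Of the 10 members, 0 were called in the reported test, and also with DESeq2, limma-voom, RLE and upper-quartile scaling. The 1 CPM filter removed Retn and called 0 of the other 9. The likelihood ratio test called 3 (Cfd, Pck1 and Cyp2e1), no filter 7, and leaving out 1 mouse 0 to 3: Cfd and Cyp2e1 without WT replicate 1, and Cfd, Pck1 and Cyp2e1 without WT replicate 2. Of the 12 other adipocyte genes, 7 were called with no filter and 0 to 2 with 1 mouse left out. Over the pathway lists together, DESeq2 called 6, DESeq2 on all genes 7, the likelihood ratio test 4, no filter 23, and leaving out 1 mouse 0 to 7. The cause of these differences was not tested. The list counts under alternatives, and DESeq2 on all genes, were added after the data were seen. The median log2 fold change of the 8 markers, -1.08, was between -1.84 (without Mef2dα2 Eko replicate 1) and -0.31 (without WT replicate 1). Lep changed sign with limma-voom (-0.28) and, over the fits with 1 mouse left out, was between -1.82 (without Mef2dα2 Eko replicate 1) and 1.01 (without Mef2dα2 Eko replicate 2). Pparg was between -0.77 and 0.022, changing sign without WT replicate 1. The extremes of the mouse order held for 8 genes with unscaled totals and with a pseudocount of 1.

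The replicate numbers are shared by the genotypes, and same-numbered mice have adjacent tags in the sample labels, but no label says that they pair mice. Deviations of same-numbered mice correlated at 0.12. With the replicate number as a block, 186 genes were called, among them 6 members (Adipoq, Cfd, Plin1, Cidec, Pck1 and Cyp2e1), 1 other adipocyte gene (Hp) and 4 genes of the pathway lists, and Lep was at -0.21. There are 2 mice per genotype, and low counts widen the intervals of Retn, Lep and Pparg.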
